A study of Sus scrofa with 14 samples.

Results

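Stretched culture (MC) was compared with static culture (Ctrl) in pig heart slices, over 6 of the 14 RNAseq libraries of the series, MC-1 and MC-2 against Ctrl-1 to Ctrl-4. The libraries were chosen by their titles and culture labels, and the features were the 11527 of 13644 listed genes with at least 1 FPKM (fragments per kilobase of transcript, scaled to the fragments mapped) in at least 2 libraries. The study asked whether cyclic stretch and hormones keep thin slices of the left ventricle close to fresh heart. Slices came from young female Yorkshire pigs, and how many pigs stand behind a library is not given. The p-values measure only the spread between libraries within a condition, pooled over all 14 libraries. Whether that is a spread between pigs is not known. Ctrl slices were kept for 12 days in transwell plates with electrical pacing and a medium holding serum, insulin, VEGF and basic FGF. MC slices were kept for 12 days in that medium in the CTCM, a chamber in which cyclic air pressure under a membrane stretches each slice while electrodes pace it. TD slices were kept like Ctrl with 100 nM of T3 (triiodothyronine, active thyroid hormone) and 1 µM of Dex (dexamethasone, a potent glucocorticoid) in the medium, and MT slices had the CTCM with both agents, though the label of MT-2 names T4 in place of T3. D0 libraries are of fresh slices at day 0. MC thus differs from Ctrl in stretch and also in the chamber, the pacing voltage, the schedule of medium changes and the glued support ring, and these cannot be told apart.

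Cardiomyocytes sense stretch through the sarcomere, the Z disc, focal adhesions and stretch-activated channels, and the signals reach the nucleus through factors such as YAP with TEAD, SRF and NFAT. Glucocorticoids act through a nuclear receptor whose targets include FKBP5, TSC22D3 and PDK4, and which lowers many cytokines. T3 acts through its own nuclear receptors, and type 3 deiodinase, DIO3, which inactivates T3, is among the genes that respond to thyroid hormone.

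Both MC libraries were shallower than most. Depth relative to the first D0 library, taken from the FPKM step that 1 read makes, was 0.738 in MC-1 and 0.470 in MC-2 against 0.760 to 1.107 in Ctrl, and 1127 and 1457 genes were listed at 0 against 641 to 686. The typical SD between libraries on the log2 scale was 0.402 in MC and 0.252 in Ctrl. Mitochondrially encoded genes made 9.86% and 9.30% of all FPKM in MC, 4.61% to 5.44% in Ctrl and 4.76% to 5.56% in TD. As a check of the tissue, the 9 of 15 listed cardiomyocyte markers that passed the filter summed to 427 to 536 FPKM in D0, but only 9.64 to 16.1 in Ctrl, 5.15 to 21.2 in TD and 41.6 to 61.3 in MC. MYL2 alone, given below, made most of this sum in D0 and a large part of it in Ctrl and MC. The sum is thus no check apart from MYL2. In such bulk tissue fewer cells of a type and less RNA per cell cannot be told apart. The titles and culture labels give MC no T3/Dex, but the treatment entry of the labels names both agents for all 14 samples, and the extraction entry names hiPS-CMs. FMO1, FKBP5, TSC22D3 and DIO3 stood at or near TD levels in both MC libraries, as the values below show. DIO3 was low in MT, at 4.65 and 2.55 FPKM against 16.6 to 33.5 in TD. Whether the MC medium held T3/Dex, or libraries were exchanged, was not tested, and no MC library lacks this pattern, so no result could be given without it.

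In MC, 744 genes had an adjusted p under 0.05 against Ctrl and are here termed called, 265 higher (2.3% of the genes tested) and 479 lower (4.16%), or 6.45% in all. All 744 had MC and Ctrl values that did not overlap, which also held for 20.7% of all genes upward and 24.6% downward. At least 1 on the log2 scale was reached by 115 of the higher and 238 of the lower genes. The count rests on single libraries: it was 279 without MC-1, 132 without MC-2, 266 without Ctrl-1, 280 without Ctrl-3 and 359 without Ctrl-4. It was 2053 when MC and Ctrl were fitted alone. Rises made 35.6% of the calls as deposited, 15.9% after rescaling to TPM (95 higher, 503 lower) and 47.4% after quantile normalization (527 higher, 585 lower). In TD, 401 genes were called against the same Ctrl libraries (3.48% of those tested), 145 higher (1.26%) and 256 lower (2.22%).

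Changes were shared where a gene was called in the same direction in both comparisons. Of the 744 MC calls, 287 were shared with TD, 98 higher and 189 lower, which is 38.6% of the MC calls and 71.6% of the TD calls. No gene was called in opposite directions. Both comparisons use the same 4 Ctrl libraries, so a deviation in Ctrl enters both and the overlap has no test of its own. The median log2 fold change of the 98 shared rises was 1.24 in MC and 1.21 in TD, and that of the 189 shared falls was -1.18 and -1.0. Without MC-2 the shared count was 100, without MC-1 139, without Ctrl-1 156 and without Ctrl-3 168, and without MC-2 1 gene was called in opposite directions.

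A gene called in MC and not in TD is not thereby shown to differ. Of the 744 MC calls, 457 were not called in TD, 167 higher and 290 lower. The direct comparison of MC with TD, which is the test of that difference, called 5 genes (0.0434% of those tested), with 894 at an unadjusted p under 0.05. TNNT2 and TSACC were higher in MC (0.0174%), and SH3BP1, SNORD33 and an entry with no symbol (ENSSSCG00000038609) were lower (0.026%). Their MC and TD values did not overlap, which held for 7.1% of all genes upward and 8.41% downward. All 5 were called against Ctrl in the same direction as against TD.

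**Figure D1:**
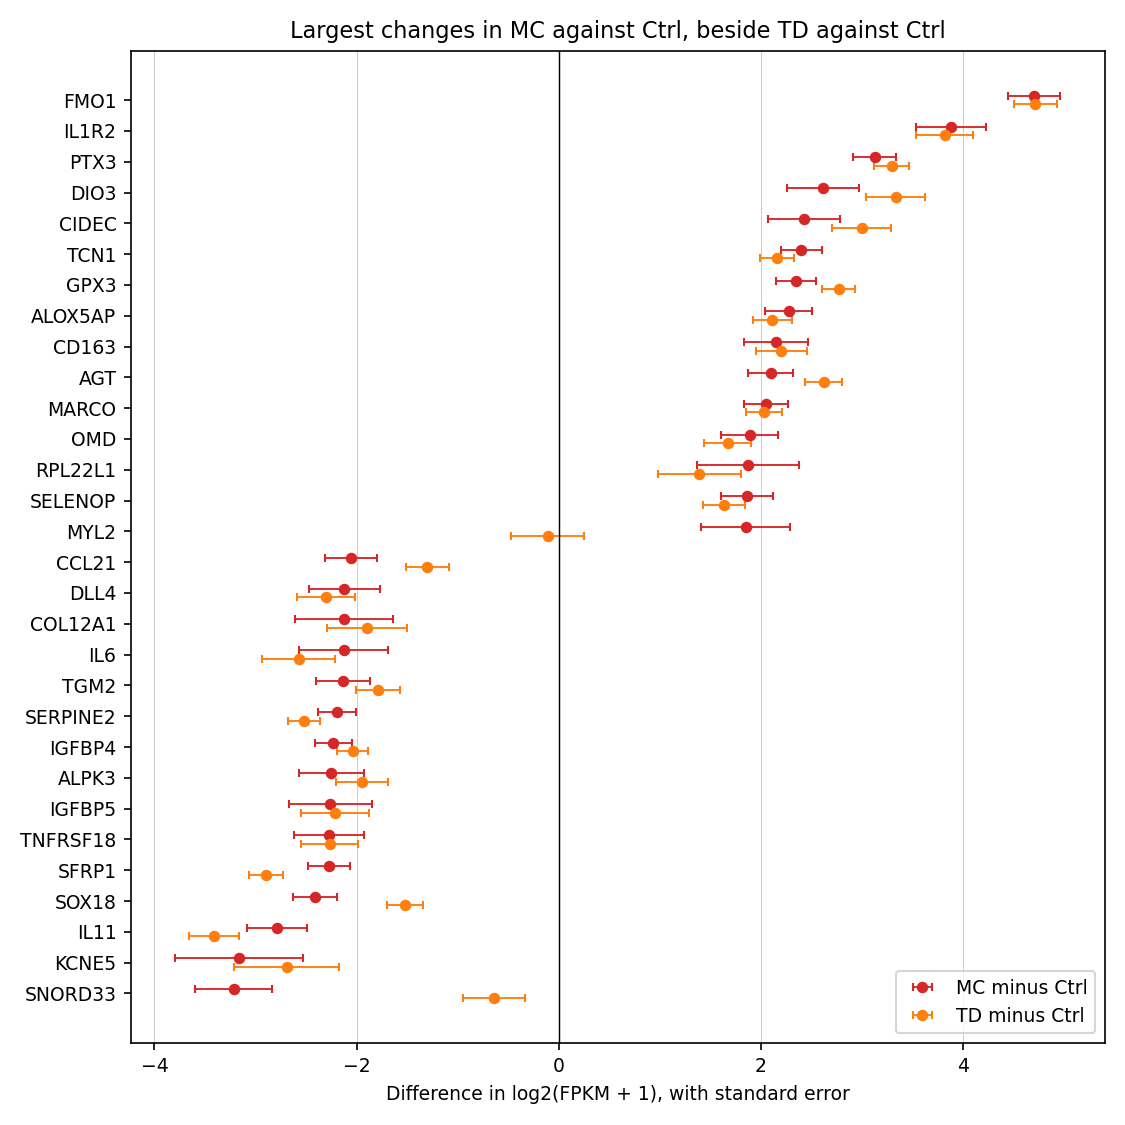
Log2 fold change, on the log2(FPKM + 1) scale, of the 15 largest rises and 15 largest falls called in MC against Ctrl, with the same genes in TD against Ctrl beside them; points are limma estimates and bars their standard errors. FMO1 heads the rises at 4.70 in MC and 4.71 in TD, while MYL2, at 1.85 in MC, lies at -0.11 in TD.

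The largest rise in MC was that of the flavin monooxygenase FMO1 (ENSSSCG00000015268, chromosome 9 from 63860957 to 63895086 of Sscrofa11.1). Its level was 2.17, 2.73, 4.21 and 5.2 FPKM in Ctrl, 104 and 125 in MC and 92.7 to 149 in TD. Both MC libraries stood far above every Ctrl library and inside the TD range. It rose by 4.70 on the log2 scale (standard error 0.26, adjusted p = 1.83e-06) in MC and by 4.71 in TD, and MC minus TD was -0.01 with a 95% interval of -0.58 to 0.55. Next came IL1R2 (ENSSSCG00000028331, chromosome 3 from 52367434 to 52406393), the decoy receptor that binds interleukin-1 without signalling. It had 4 to 10.1 FPKM in Ctrl, 83.0 and 132 in MC and 69.9 to 134 in TD, and rose by 3.88 (adjusted p = 7.01e-05) and 3.82 on the log2 scale. The groups did not overlap with Ctrl, and MC lay within TD. Pentraxin 3, PTX3 (ENSSSCG00000011727), a secreted pattern recognition protein, had 9.76 to 15.4 FPKM in Ctrl, 131 and 102 in MC and 109.5 to 173 in TD, and rose by 3.13 (adjusted p = 1.26e-05) and 3.29. These 3 genes were called in each of the 25 alternative settings tried.

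Glucocorticoid targets were chosen as a list of 32 genes, 25 of them tested. In MC 5 rose (FMO1, IL1R2, FKBP5, PDK4 and TSC22D3) and CEBPB fell, and in TD 6 rose and none fell. That is 24% called in MC, against 6.45% of all genes, while TD had 3.48% of all genes called. The list was chosen with earlier results of these data known and holds FMO1 and IL1R2, the largest rises in MC, so its count is no independent evidence. FKBP5 (ENSSSCG00000001549, chromosome 7 from 31441764 to 31550704), a chaperone that restrains the glucocorticoid receptor, had 19.9, 17.4, 31.1 and 32.6 FPKM in Ctrl, 79.8 and 64.5 in MC and 73.1 to 89.4 in TD. It rose by 1.52 (standard error 0.23, adjusted p = 0.00321) in MC and 1.66 in TD. The glucocorticoid-induced leucine zipper TSC22D3, named after its values were seen, had 22.9 to 30.8 FPKM in Ctrl, 50.9 and 55.2 in MC and 55.3 to 62.4 in TD, a rise of 1.00 (adjusted p = 0.00291) and 1.17. Neither gene overlapped between MC and Ctrl, and both kept their call without any single MC or Ctrl library. PDK4, which turns off pyruvate dehydrogenase, rose by 1.32 (adjusted p = 0.0462) in MC, from 7.90 to 12.8 FPKM in Ctrl to 34.6 and 19.3, and its call was lost without any 1 of the 6 libraries (highest adjusted p 0.194, without MC-1). CEBPB, a transcription factor of the acute phase, fell by 0.81 (adjusted p = 0.0339), a call lost without any of the 6 libraries except Ctrl-4 (up to 0.229, without MC-2). The list's median was 0.30 in MC and 0.29 in TD, against -0.04 and -0.01 over all genes tested, and it was -0.01 after rescaling to TPM, where the median of all genes was -0.33.

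**Figure D2:**
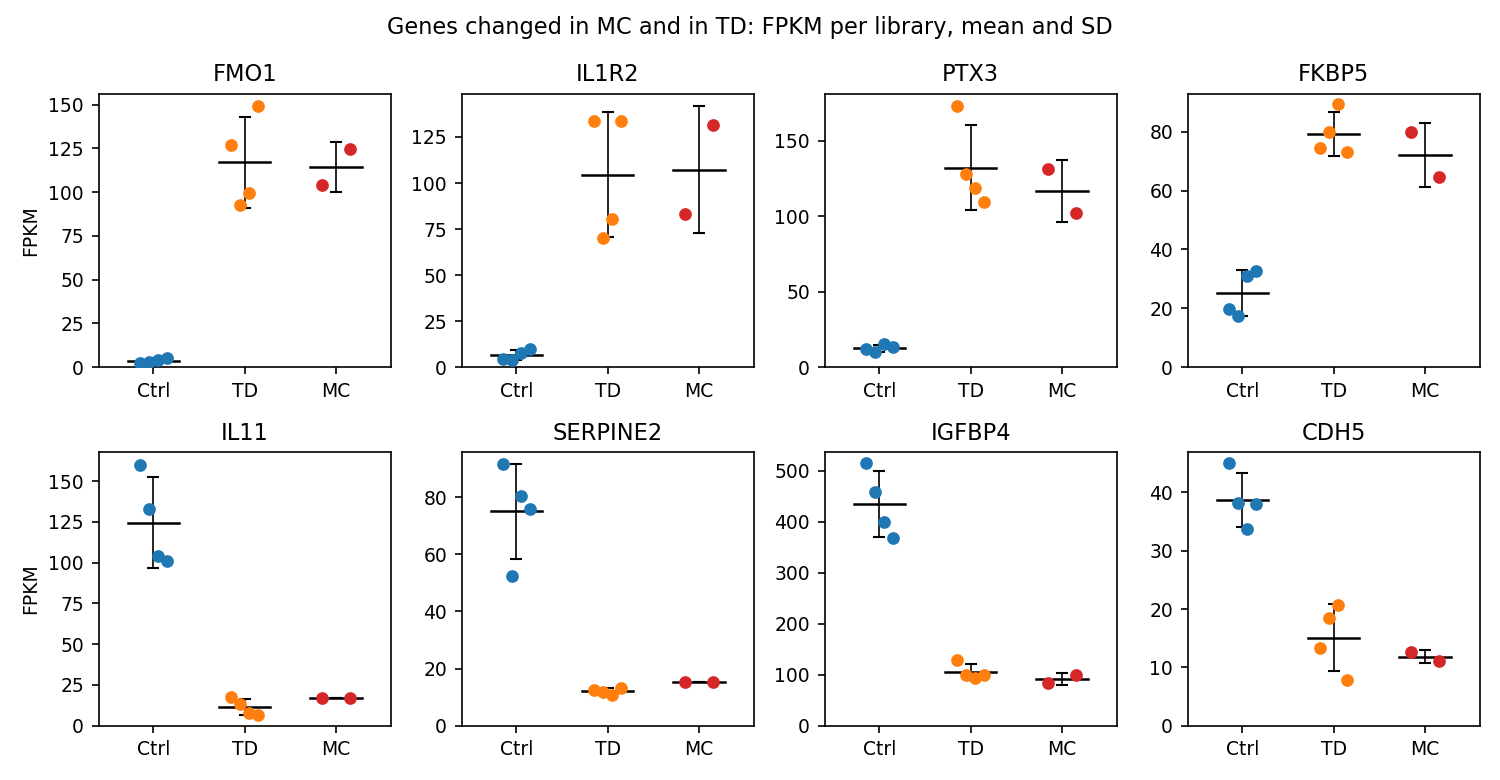
FPKM of 8 genes called in the same direction in MC and TD against Ctrl, by library (points), with the mean and SD of each group; each panel has its own axis. FMO1, IL1R2, PTX3 and FKBP5 rise and IL11, SERPINE2, IGFBP4 and CDH5 fall, with no MC library inside the Ctrl range.

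DIO3 (ENSSSCG00000036990) had 2.51, 2.71, 0.445 and 1.38 FPKM in Ctrl, 14.8 and 14.9 in MC, 16.6 to 33.5 in TD and 18.0 and 18.8 in D0. It rose by 2.61 (adjusted p = 0.00184) in MC and 3.33 in TD, and MC minus TD was -0.72 (95% interval -1.49 to 0.05). The MC values lay above every Ctrl and below every TD library. It was the only called gene of 11 tested in the thyroid hormone list, 9.09% in MC against 6.45% of all genes. The list's median was -0.11 in MC and -0.15 in TD.

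Further shared rises were those of the following genes. Plasma glutathione peroxidase, GPX3, rose from 89.3 to 116 FPKM in Ctrl to 494 and 547 in MC, with 529 to 819 in TD, by 2.35 (adjusted p = 6.72e-05) and 2.77. The selenium carrier SELENOP rose by 1.86 (adjusted p = 0.00184) and 1.63, and catalase, CAT, by 0.98 (adjusted p = 0.00706) and 0.77. CIDEC, a lipid droplet protein, rose by 2.43 and 3.0, and TCN1, which binds vitamin B12, by 2.40 and 2.16. The proteoglycans OMD and OGN, both on chromosome 3, rose by 1.89 and 1.66 in MC and 1.67 and 1.22 in TD. Follistatin, FST, which binds activins, rose by 1.63 (adjusted p = 0.0178) and 1.35. Without MC-2 the adjusted p was 0.0858 for CAT, 0.0736 for OGN and 0.14 for FST, and without MC-1 it was 0.0574 for OGN and 0.0657 for FST.

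Angiotensinogen, AGT, the precursor of angiotensin, is a long-known glucocorticoid target in liver. It had 14.1, 7.28, 10.7 and 14.6 FPKM in Ctrl, 54.4 and 48.7 in MC and 64.9 to 79.7 in TD. MC lay above every Ctrl and below every TD library, and the rise was 2.09 (adjusted p = 0.000252) in MC and 2.62 in TD. TRIM63, the muscle ubiquitin ligase MuRF1 that rises in glucocorticoid-induced atrophy, had 0.619, 1.19, 1.13 and 0.796 FPKM in Ctrl, 4.97 and 5.60 in MC and 3.01 to 5.77 in TD, a rise of 1.71 (adjusted p = 0.0227) and 1.42. The mannose receptor of macrophages, MRC1, had 2.26 to 4.96 FPKM in Ctrl, 12.3 and 9.51 in MC and 8 to 14.9 in TD, a rise of 1.37 (adjusted p = 0.00905) and 1.40. The call of TRIM63 was lost without MC-1, MC-2, Ctrl-1 or Ctrl-4 (adjusted p up to 0.161) and that of MRC1 without MC-1 (0.0706) or MC-2 (0.0511).

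The bases just upstream of AGT, TRIM63 and MRC1 are shown as examples, chosen because they rose in both MC and TD and hold the hexamer TGTTCT, the conserved core of glucocorticoid response elements. They are the 250 bases before the annotated start in RefSeq, Sscrofa11.1, 5′ to 3′ on the gene's strand, at chr14:59642780-59643029 (plus strand), chr6:83507472-83507721 (minus strand) and chr10:44107676-44107925 (plus strand). Capitals mark TGTTCT and, in TRIM63, the TATA box letters TATAAA.
AGT: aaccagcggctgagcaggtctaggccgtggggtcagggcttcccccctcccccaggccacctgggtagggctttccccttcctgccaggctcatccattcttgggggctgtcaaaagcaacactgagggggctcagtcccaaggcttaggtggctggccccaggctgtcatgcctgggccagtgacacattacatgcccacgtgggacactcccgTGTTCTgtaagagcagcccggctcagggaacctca
TRIM63: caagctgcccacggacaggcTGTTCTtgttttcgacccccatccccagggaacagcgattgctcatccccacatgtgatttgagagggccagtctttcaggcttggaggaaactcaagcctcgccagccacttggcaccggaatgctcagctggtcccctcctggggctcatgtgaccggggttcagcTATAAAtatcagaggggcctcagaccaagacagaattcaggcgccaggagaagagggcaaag
MRC1: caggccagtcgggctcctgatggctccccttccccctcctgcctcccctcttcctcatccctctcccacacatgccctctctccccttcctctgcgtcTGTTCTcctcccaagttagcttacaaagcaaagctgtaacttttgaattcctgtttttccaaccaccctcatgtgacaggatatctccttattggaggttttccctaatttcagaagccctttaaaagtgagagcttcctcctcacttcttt
The hexamer begins 35 bases before the start in AGT, 230 in TRIM63 and 152 in MRC1. Searched on both strands, TGTTCT stood upstream of 12 of 81 shared rises with a matched window (14.8%), 11 of 170 shared falls (6.47%) and 797 of all 9658 tested genes with one (8.25%). The letters TATAAA stood upstream of 13 of the 81 (16%), 11 of the 170 (6.47%) and 602 of the 9658 (6.23%). FMO1, IL1R2, FKBP5 and PDK4 held no TGTTCT in this window, while TGM2, GPNMB, BCAR1 and SLC16A3, which fell in MC, did. A match is a run of letters and not a bound site.

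Macrophage genes were among the shared rises. Of 15 macrophage markers tested, CD163, MRC1, MSR1 and CD14 were called higher in MC and none lower, 3 of the 4 also in TD. That is 26.7% of the list, against 2.3% of all genes higher, and the list's median was 0.30 in MC and 0.26 in TD. Called or not, 11 of the 15 had a positive change and 4 a negative one. Both MC libraries lay above every Ctrl library for 5 markers and below for 2, against 20.7% and 24.6% of all genes. The haemoglobin scavenger receptor CD163 had 3.01 to 8.69 FPKM in Ctrl, 31.3 and 22.0 in MC and 22.0 to 35.5 in TD, a rise of 2.15 (adjusted p = 0.00278) and 2.20. MARCO, another scavenger receptor of macrophages, had 4.36 to 6.35 FPKM in Ctrl, 23.9 and 23.1 in MC and 19.1 to 27.0 in TD, a rise of 2.05 and 2.03. ALOX5AP, needed for leukotriene synthesis, rose by 2.27 and 2.11. No MC value of these 3 genes overlapped with Ctrl. The 15 markers together summed to 669 to 982 FPKM in Ctrl, 797 and 1200 in MC and 748 to 1297 in TD, ranges that overlap. The count of 4 was 1 without MC-1 or MC-2 and 2 without Ctrl-1 or Ctrl-3.

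Falls shared with TD included those of cytokines. Interleukin-11, IL11 (ENSSSCG00000040725, chromosome 6 from 59540482 to 59544909), a cytokine of fibroblast activation, had 160.1, 133, 104 and 101 FPKM in Ctrl, 17.0 and 16.7 in MC, 6.75 to 17.4 in TD and 22.6 and 22.9 in D0. Every MC library lay below every Ctrl library, and the fall was -2.79 (standard error 0.30, adjusted p = 0.00027) in MC and -3.41 in TD. Interleukin-6, IL6, had 30.3 to 46.0 FPKM in Ctrl, 11.7 and 5.90 in MC and 2.27 to 12.6 in TD, a fall of -2.13 (adjusted p = 0.0174, and 0.188 without MC-2) and -2.57. The potassium channel subunit KCNE5 fell by more, from 11 to 40.9 FPKM in Ctrl to 3.48 and 0 in MC and 1.5 to 2.41 in TD, a fall of -3.16 (adjusted p = 0.0137, and 0.189 without MC-2) and -2.69. Of 40 chemokine and cytokine genes tested, 4 rose (IL1R2, PTX3, CXCL10 and the interleukin-33 receptor IL1RL1) and 6 fell (IL11, IL6, CCL21, CXCL14, CXCL12 and IL16) in MC, and all 10 were shared with TD. That is 25% of the list called, against 6.45% of all genes. Without MC-1 or MC-2 3 rose and 3 fell. CCL21, a chemokine of lymphatic endothelium, had 1.87 to 4.43 FPKM in Ctrl and was listed at 0 in both MC libraries. The list's median went from 0.06 as deposited to -0.25 in TPM, while the median of all genes went from -0.04 to -0.33. It lay above that of all genes in both.

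Regulators of Wnt and IGF signalling and of proteases fell by similar amounts. SFRP1, a secreted Wnt antagonist, had 116, 72.6, 81.8 and 70.8 FPKM in Ctrl, 14.1 and 19.3 in MC and 8.85 to 12.5 in TD. Its fall was -2.27 (adjusted p = 7.56e-05) in MC and -2.90 in TD, with MC above every TD library. SFRP2, of the same family, fell by 1.66 in MC and 1.56 in TD. In the Wnt list 5 of 22 tested genes fell (SFRP1, SFRP2, LRP5, WNT5A and WNT5B) and none rose, 22.7% against 4.16% of all genes lower, with a median of -0.52 in MC and -0.38 in TD. The Wnt count was 3 without MC-1, Ctrl-1 or Ctrl-3 and 2 without MC-2. Of 11 genes of the IGF axis, IGFBP5, IGFBP4 and IGFBP2, which bind insulin-like growth factors, fell and none rose. That is 27.3% against 4.16% of all genes lower, with a median of -0.83. IGFBP2 had 1675 to 1924 FPKM in Ctrl, 462 and 630.5 in MC and 413 to 537 in TD, a fall of -1.76 (adjusted p = 0.00181) and -1.92. IGFBP4 had 369 to 515 FPKM in Ctrl, 83.0 and 100.1 in MC and 92.9 to 129 in TD, a fall of -2.23 (adjusted p = 6.72e-05) and -2.04. SERPINE2, an inhibitor of thrombin and plasminogen activators, had 52.3 to 91.8 FPKM in Ctrl, 15.4 and 15.2 in MC and 10.6 to 13.1 in TD, a fall of -2.20 (adjusted p = 6.72e-05) and -2.52. Transglutaminase 2, TGM2, which crosslinks matrix proteins, fell by 2.14 (adjusted p = 0.00101) and 1.79, and the gelatinase MMP9 by 1.70 (adjusted p = 0.00503, and 0.0556 without MC-2) and 1.21. All MC values of these genes lay below all Ctrl values.

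Endothelial markers had the highest share of falls among the lists with at least 9 genes tested. Of 16 tested, 11 fell in MC (SOX18, KDR, CDH5, TIE1, CLDN5, ROBO4, ESAM, VWF, SOX17, PECAM1 and EGFL7) and none rose, 68.75% against 4.16% of all genes lower. In both MC libraries 15 of the 16 lay below every Ctrl library, which also held for 24.6% of all genes. The median was -1.13 in MC and -0.90 in TD, where 8 fell. CDH5 (ENSSSCG00000035772, chromosome 6 from 27108560 to 27142145), the cadherin of endothelial junctions, had 45.1, 38.1, 33.8 and 37.9 FPKM in Ctrl, 12.7 and 11 in MC, 7.90 to 20.7 in TD and 76.1 and 70.4 in D0. It fell by 1.62 (adjusted p = 0.00659, and 0.0858 without MC-2) in MC and 1.38 in TD. SOX18, an endothelial transcription factor, had 18.4 to 20.3 FPKM in Ctrl, 2.63 and 3.03 in MC and 4.66 to 9.65 in TD, a fall of -2.41 (adjusted p = 7.01e-05) and -1.52. MC minus TD for SOX18 was -0.89 (95% interval -1.36 to -0.42), with an adjusted p of 0.399. The VEGF receptor KDR fell by 1.80 (adjusted p = 0.00484, and 0.081 without MC-2) and 1.61. Summed over the 16 markers, the level was 308 to 404 FPKM in Ctrl, 136 to 152 in MC, 114 to 195 in TD and 548 to 636 in D0, and no marker was listed at 0 in MC. The count of 11 was 5 without MC-1, 1 without MC-2 and 6 without Ctrl-1.

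Vascular signalling genes fell beside these markers. In the VEGF, FGF, PDGF and angiopoietin list 8 of 33 fell (KDR, TIE1, VEGFA, FGFR4, PGF, ANGPT2, PDGFB and DUSP6) and none rose, 7 of them shared with TD. That is 24.2% against 4.16% of all genes lower. VEGFA had 319.8, 161, 392 and 374 FPKM in Ctrl and 101 and 122 in MC, a fall of -1.40 (adjusted p = 0.0424, lost without MC-1, MC-2, Ctrl-1, Ctrl-3 or Ctrl-4, up to 0.171). The list had 5 falls without MC-1, 2 without MC-2 and 5 without Ctrl-1 or Ctrl-3. In the Notch pathway 5 of 19 fell (DLL4, NOTCH1, HES4, NOTCH4 and HEYL) and none rose, 2 of them shared, or 26.3% against 4.16% of all genes lower. DLL4, a Notch ligand of arterial and tip cells, had 23.6 to 31.1 FPKM in Ctrl, 4.56 and 7.02 in MC and 3.55 to 9.53 in TD, a fall of -2.12 (adjusted p = 0.00561, and 0.0574 without MC-1) and -2.30. The Notch count was 1 without MC-1 or MC-2 and 3 without Ctrl-1, Ctrl-3 or Ctrl-4. Endothelial markers moved with both lists, and their part in these falls was not tested.

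Of 21 collagen genes, COL12A1, COL8A1 and COL6A2 fell and none rose, 14.3% against 4.16% of all genes lower, with a median of -1.10 in MC and -0.59 in TD. Ctrl-2 stood apart here, since its collagens summed to 3108 FPKM where the highest Ctrl library had 8996, and MC had 2610 to 3122. TD was split too, with 2641 and 2768 FPKM in TD-1 and TD-4 and 5587 and 6593 in TD-2 and TD-3. The low sums were thus not confined to MC, and the cause of the split was not tested. Without Ctrl-2, 9 collagens fell, without MC-2 none did, and without MC-1, Ctrl-1, Ctrl-3 or Ctrl-4 1 did. COL1A2 had 1263, 516, 1503 and 1225 FPKM in Ctrl and 660.0 and 584 in MC, with -0.75 (adjusted p = 0.26), and COL3A1 had -0.97 (adjusted p = 0.0876). In the TGF-beta and BMP list FST rose and 5 of 36 fell (TGFB3, INHBA, ENG, PMEPA1 and TGFB1), 16.7% called against 6.45% of all genes. TGFB3 (ENSSSCG00000002385) had 14.5 to 16.6 FPKM in Ctrl, 3.44 and 5.24 in MC and 2.59 to 4.04 in TD, a fall of -1.67 (adjusted p = 0.000289) and -1.91, and it was called in every setting. Without MC-1 2 genes of this list fell, without MC-2 1, and without Ctrl-1, Ctrl-3 or Ctrl-4 3. No fibroblast marker of 11 was called, with a median of -0.30, and the markers summed to 2842 to 5772 FPKM in Ctrl and 3057 to 3164 in MC.

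The muscle genes MYL2, TNNT2, ACTA1 and MYOZ2 were called higher in MC and not called in TD. MYL2 (ENSSSCG00000039710, chromosome 14 from 32205953 to 32213848), the ventricular myosin regulatory light chain, had 6.57, 6.79, 7.78 and 4.11 FPKM in Ctrl, 20.2 and 30.4 in MC, 2.21 to 7.95 in TD and 332 and 285 in D0. Both MC libraries lay above all Ctrl and TD libraries, and far below fresh tissue. The rise was 1.85 (standard error 0.44, adjusted p = 0.0305) in MC against -0.11 in TD, and MC minus TD was 1.96 (95% interval 1.00 to 2.91, adjusted p = 0.379). Cardiac troponin T, TNNT2 (ENSSSCG00000023031, chromosome 10 from 23749528 to 23759696), had 1.75, 1.13, 0.841 and 0.607 FPKM in Ctrl, 4.76 and 3.74 in MC, 0.176 to 0.848 in TD and 23.3 and 16.5 in D0. It rose by 1.36 (adjusted p = 0.0119), and it is 1 of the 5 genes that differed between MC and TD, with 1.73 (95% interval 1.16 to 2.30, adjusted p = 0.046). Skeletal alpha-actin, ACTA1, a fetal and stress isoform in heart, had 0.679 to 1.53 FPKM in Ctrl, 2.72 and 7.71 in MC and 0.353 to 1.67 in TD, a rise of 1.48 (adjusted p = 0.032). The Z disc protein MYOZ2, named after its values were seen, rose by 0.81 (adjusted p = 0.0463, lost without any 1 of the 6 libraries, up to 0.337).

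Of 27 sarcomere and Z disc genes tested, 4 were called higher (MYL2, TRIM63, TNNT2 and MYOZ2) and none lower in MC, 14.8% against 2.3% of all genes, with a median of 0.18. Called or not, 19 of the 27 had a positive change and 8 a negative one. Both MC libraries lay above every Ctrl library for 9 of these genes and below for 3, against 20.7% and 24.6% of all genes. TRIM63 is a ligase that degrades sarcomere proteins and was shared with TD. In TD it was the only member called. Without MC-1, Ctrl-1 or Ctrl-4 1 of the 27 rose, without Ctrl-3 2 and without MC-2 none. Without MC-2 the adjusted p of MYL2, TNNT2 and ACTA1 was 0.235, 0.0677 and 0.32. The call of MYL2 was also lost without MC-1, Ctrl-1, Ctrl-3 or Ctrl-4 (0.0563 to 0.0725), that of TNNT2 without MC-1 (0.0771) and that of ACTA1 without Ctrl-1, Ctrl-3 or Ctrl-4 (0.0718 to 0.081). Cardiomyocyte markers, 9 tested, gave 2 rises (MYL2 and TNNT2) with a median of 0.82 in MC and -0.09 in TD, and 1 or none without MC-1, MC-2, Ctrl-1, Ctrl-3 or Ctrl-4. B-type natriuretic peptide, NPPB, released by the stretched ventricle, had 0.134 to 0.834 FPKM in Ctrl, 0.516 and 0 in MC and 15.6 and 10.4 in D0, with -0.18 (adjusted p = 0.822).

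**Figure D3:**
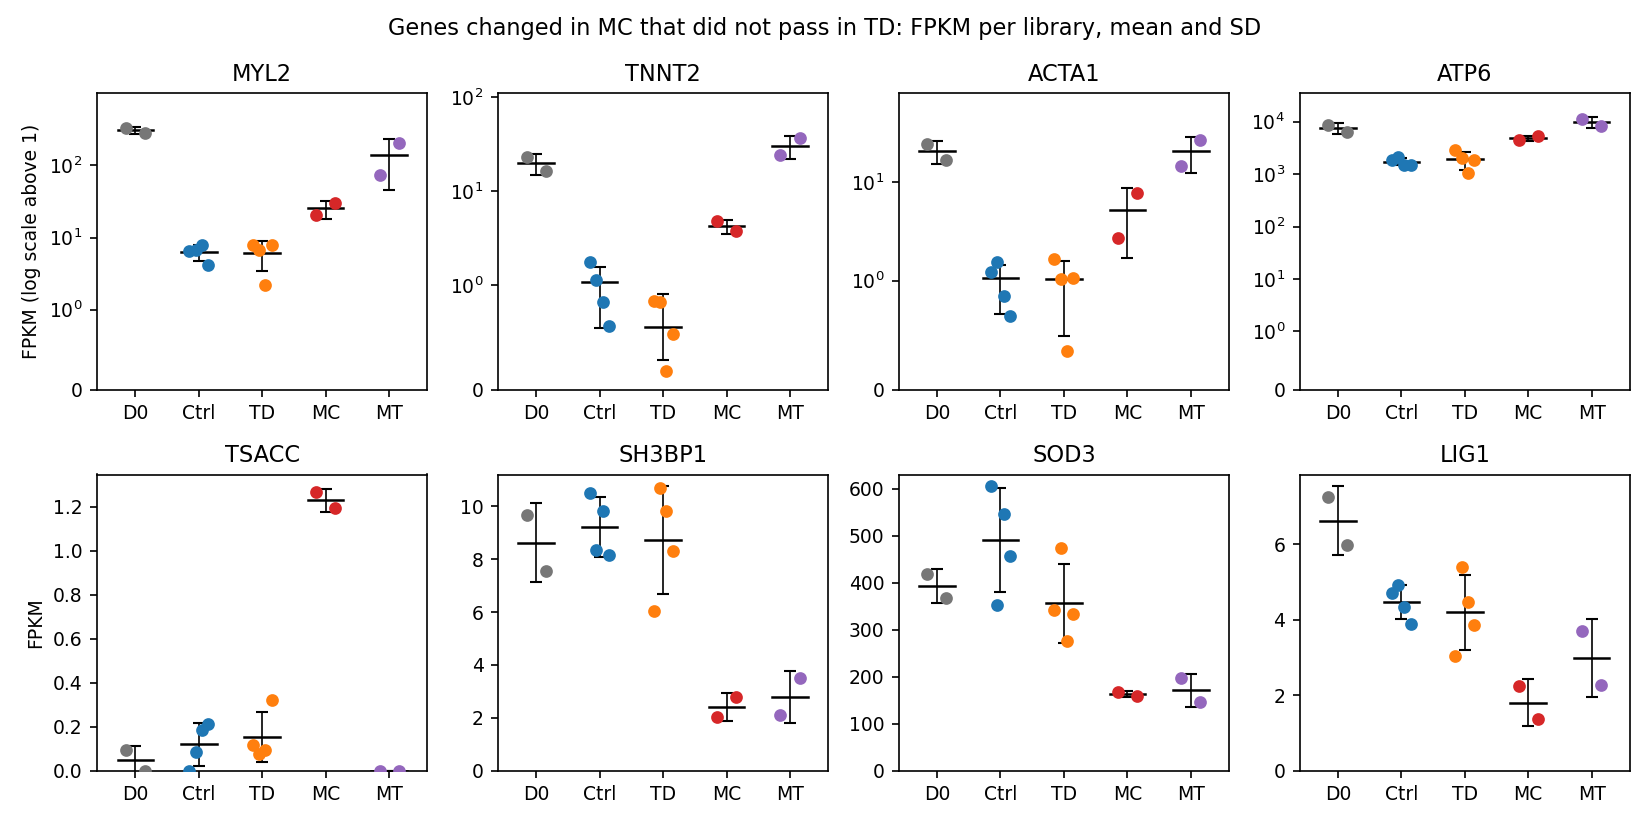
FPKM by library in D0, Ctrl, TD, MC and MT for 8 genes called in MC against Ctrl and not in TD against Ctrl, with group means and SD; the top row is on a log axis above 1 and the bottom row is linear. MYL2, TNNT2, ACTA1 and ATP6 lie between Ctrl and D0 in MC, and SH3BP1, at 2.03 and 2.79 in MC, lies below every Ctrl and TD library.

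The mitochondrially encoded subunits of the respiratory chain were higher in MC. Of 13 tested, 9 rose and none fell, 69.2% against 2.3% of all genes higher, and 0 were called in TD by limma, with a median of 1.32 in MC and 0.21 in TD. ATP6 (ENSSSCG00000018081), of the ATP synthase, had 1853, 2078, 1504 and 1517 FPKM in Ctrl, 4477 and 5241 in MC, 1042 to 2841 in TD and 8824 and 6346 in D0, a rise of 1.49 (adjusted p = 0.0351) against 0.08 in TD. ND2, of complex I, had 272 to 515 FPKM in Ctrl and 1079 and 986 in MC, a rise of 1.44 (adjusted p = 0.0192), and COX2, of complex IV, rose by 1.42 (adjusted p = 0.0398). The direct difference from TD was 1.41 for ATP6 (95% interval 0.61 to 2.22) and did not pass the threshold (adjusted p = 0.519). Nuclear genes of oxidative phosphorylation had a median of 0.54 with 0 of 51 called by limma in MC. The mitochondrially encoded count was 3 without MC-1, 0 without MC-2, 5 without Ctrl-1, 4 without Ctrl-3 and 3 without Ctrl-4. ATP6 and COX2 lost their call without any library except Ctrl-2 (up to 0.219 and 0.24) and ND2 without MC-1, MC-2, Ctrl-3 or Ctrl-4 (up to 0.112).

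TSACC, SH3BP1 and the small nucleolar RNA SNORD33 also differed from TD. TSACC had 0 to 0.211 FPKM in Ctrl, 0.0779 to 0.323 in TD and 1.27 and 1.19 in MC, levels near the filter, with a difference of 1.00 from Ctrl (adjusted p = 0.00278) and 0.96 from TD (adjusted p = 0.046). SH3BP1, a GTPase-activating protein for Rac, had 10.5, 8.36, 9.82 and 8.17 FPKM in Ctrl, 6.04 to 10.7 in TD and 2.03 and 2.79 in MC. It fell by 1.59 (adjusted p = 0.0025) against Ctrl, and MC minus TD was -1.49 (95% interval -1.99 to -1.0, adjusted p = 0.046). SNORD33 (ENSSSCG00000025540) had 6.37 to 14.9 FPKM in Ctrl, 2.96 to 9.41 in TD and was listed at 0 in both MC and both MT libraries. Small nucleolar RNAs lie inside host genes, and reads of the 2 cannot be told apart. Of 82 such entries tested 3 were called lower in MC and none higher, and MC-1 and MC-2 listed 24 and 45 of them at 0 against 9 to 18 in Ctrl, beside the lower depth of MC.

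Other genes were called in MC and not in TD, without passing the direct test. Extracellular superoxide dismutase, SOD3, had 607, 353, 547 and 457 FPKM in Ctrl, 167 and 159 in MC and 275 to 475 in TD, a fall of -1.55 (adjusted p = 0.00503, and 0.0595 without MC-2) against -0.46. Its MC minus TD was -1.09 (95% interval -1.64 to -0.55, adjusted p = 0.389). DNA ligase 1, LIG1, had 3.89 to 4.93 FPKM in Ctrl, 2.24 and 1.36 in MC and 3.05 to 5.38 in TD, a fall of -0.98 (adjusted p = 0.0241, lost without MC-2, Ctrl-1 or Ctrl-3 at 0.23, 0.069 and 0.0595). Mitosis genes gave 5 rises of 34 (DLGAP5, UBE2C, BUB1B, HMMR and PLK4) and no fall, 14.7% against 2.3% of all genes higher, with a median of 0.60 in MC and 0.39 in TD. Of these, UBE2C, of the anaphase-promoting complex, had 10.8 to 24.0 FPKM in Ctrl, 30.1 and 40.2 in MC and 21.6 to 45.1 in TD, a rise of 1.17 (adjusted p = 0.0475, lost without any library except Ctrl-2, up to 0.301). No mitosis gene rose without MC-1, MC-2 or Ctrl-3, 1 did without Ctrl-1, 2 without Ctrl-4 and 8 without Ctrl-2. In the circadian clock list 4 of 16 fell (NR1D1, BHLHE41, NPAS2 and DBP), 2 of them shared with TD. That is 25% against 4.16% of all genes lower, and the median was -0.72. The clock count was 0 without MC-1 or MC-2, 1 without Ctrl-1 or Ctrl-3 and 2 without Ctrl-4.

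**Figure D4:**
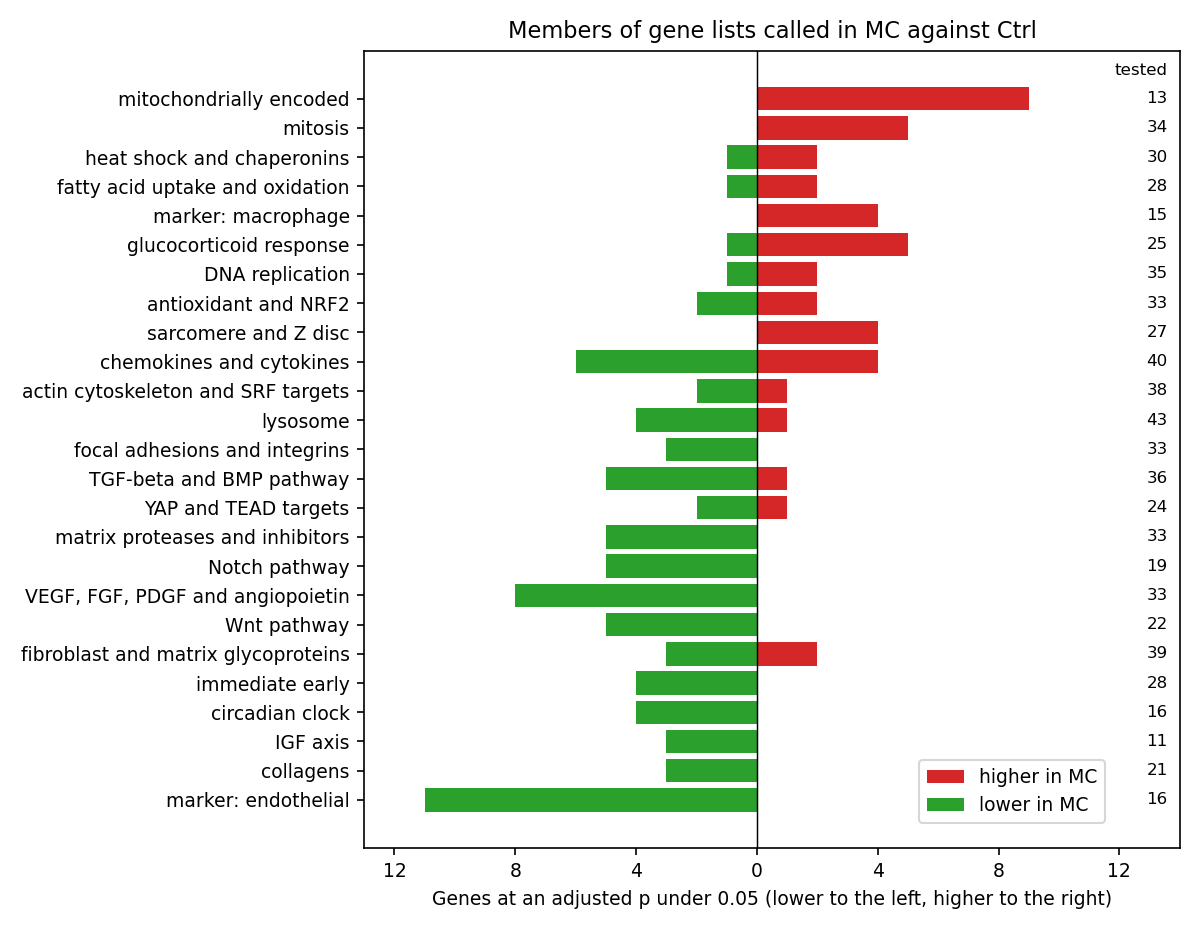
Number of genes called higher (red bars, to the right) and lower (green bars, to the left) in MC against Ctrl in gene lists with at least 9 genes tested and 3 called, with the number tested at the right edge. Endothelial markers have 11 falls of 16 tested and mitochondrially encoded genes 9 rises of 13.

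Lists of stretch signalling held the following calls. The further list members named here were chosen after their values were seen where no rule named them. Among 24 targets of YAP and TEAD, GADD45A rose by 1.04 (adjusted p = 0.0251) and the EGF receptor ligand AREG and the ectonucleotidase NT5E fell by 0.92 (adjusted p = 0.0214) and 0.66 (adjusted p = 0.0182), all 3 shared with TD. Among 38 actin cytoskeleton genes and SRF targets, TES rose and the zyxin gene ZYX and smoothelin, SMTN, fell by 1.15 (adjusted p = 0.0389) and 1.10 (adjusted p = 0.0193). Of 33 focal adhesion and integrin genes BCAR1, ITGB5 and ITGB4 fell and none rose. Among 28 entries for 27 immediate early genes 4 fell (EGR2, NR4A2, KLF2 and MAFF) and none rose, and of 15 stress and fetal cardiac genes ACTA1 rose and ENO2 fell. Of 20 ion channel and calcium handling genes tested, the cation channels TRPC6 and TRPM4 fell, TRPC6 also in TD. The share called was 12.5%, 7.89%, 9.09%, 14.3%, 13.3% and 10% in these 6 lists, against 6.45% of all genes. Their medians were -0.36, -0.18, -0.31, -0.62, -0.18 and -0.15, against -0.04 over all genes. Without MC-2 none of these lists had a called gene, and without MC-1 they had 1, 0, 1, 1, 1 and 0. GADD45A lost its call without MC-2, Ctrl-1, Ctrl-3 or Ctrl-4 (up to 0.261), AREG without any library except Ctrl-2 (up to 0.101), NT5E without MC-1, MC-2, Ctrl-1 or Ctrl-3 (up to 0.0948), ZYX without any 1 library (up to 0.256) and SMTN without MC-1, MC-2 or Ctrl-3 (up to 0.179).

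Among genes that the study follows elsewhere, TNNT2 rose in MC against Ctrl, as given above, and PKDCC, NFATC4 and PARP12 fell. The others given here, and COL1A2, COL3A1 and NPPB above, were not called between MC and Ctrl. The gap junction protein GJA1 had 492 to 724 FPKM in Ctrl and 354 and 392 in MC, with -0.65 (adjusted p = 0.091), where TD had -0.89 (adjusted p = 0.0161). The cardiac transcription factor GATA4 had -0.76 (adjusted p = 0.0686), ACTN1 -0.57 (adjusted p = 0.155), ACTA2 -0.20 (adjusted p = 0.665), RGL1 -0.11 (adjusted p = 0.7) and GAPDH, listed at no more than 2.43 FPKM, 0.18 (adjusted p = 0.74). PKDCC, a secreted kinase, had 58.1 to 90.4 FPKM in Ctrl, 37.3 and 36.5 in MC and 45.6 to 49.2 in TD and fell by 1.02 (adjusted p = 0.00605, and 0.0655 without MC-2) and 0.67. NFATC4, which carries calcineurin signals to the nucleus, fell by 1.17 (adjusted p = 0.0461) and PARP12 by 0.68 (adjusted p = 0.048). Both calls were lost without any 1 of the 6 libraries, at adjusted p of up to 0.226 and 0.334.

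Changes in MC followed the base composition of the transcripts. Genes with a matched RefSeq transcript and a mean over 5 FPKM were ordered by transcript GC content in 10 groups of 539 or 540. From the lowest to the highest group, the median log2 fold change of MC against Ctrl went from 0.43 to -0.53, and that of TD against Ctrl from 0.13 to -0.13. In the lowest group 58 genes were called higher and 0 lower by limma, and in the highest 2 and 82. Genes called higher had a median GC of 42.0% and those called lower 60.8%, against 51.4% over all genes with a matched transcript. MC minus TD ran from 0.32 to -0.37, and MT minus TD, which shares no library with MC minus Ctrl, from 0.33 to -0.30. Both MC libraries showed the trend, MC-1 from 0.41 to -0.58 and MC-2 from 0.47 to -0.46 relative to the Ctrl mean, and TD-1 did from 0.35 to -0.32, while the 4 Ctrl libraries lay between -0.14 and 0.10 in both groups. Grouped by transcript length instead, the median of MC against Ctrl went from 0.38 in the shortest group to -0.16 in the longest. Relative to the Ctrl mean, MC-2 went from 0.67 to -0.32, but MC-1 only from 0.12 to 0.05. Ctrl-2 went from 0.30 to -0.19, TD-1 from 0.63 to -0.30 and TD-4 from 0.55 to -0.33.

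After a correction of each library for GC and length, over the 9707 genes with a matched transcript, 455 genes were called in MC, 136 higher and 319 lower. Of these, 71.4% were shared with TD. Of the shared MC calls, 60 of 83 matched rises and 140 of 171 matched falls were still called in the same direction. Of those not called in TD, 17 of 139 rises and 65 of 248 falls were. MYL2 (1.38, adjusted p = 0.0305), TNNT2 (1.18, adjusted p = 0.0221) and ACTA1 (1.67, adjusted p = 0.00696) kept their call, as did SH3BP1 (-1.17) and SOD3 (-1.23). ATP6 (0.49, adjusted p = 0.438), ND2, COX2, LIG1 (-0.57, adjusted p = 0.0925) and MYOZ2 (0.011, adjusted p = 0.992) did not, and TSACC had 0.31 (adjusted p = 0.523). With the correction 0 of 13 mitochondrially encoded, 0 of 34 mitosis and 7 of 16 endothelial genes were called by limma, and no gene differed between MC and TD, with 361 at an unadjusted p under 0.05. Whether the GC and length trends arose in the tissue or in the libraries was not tested.

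**Figure D5:**
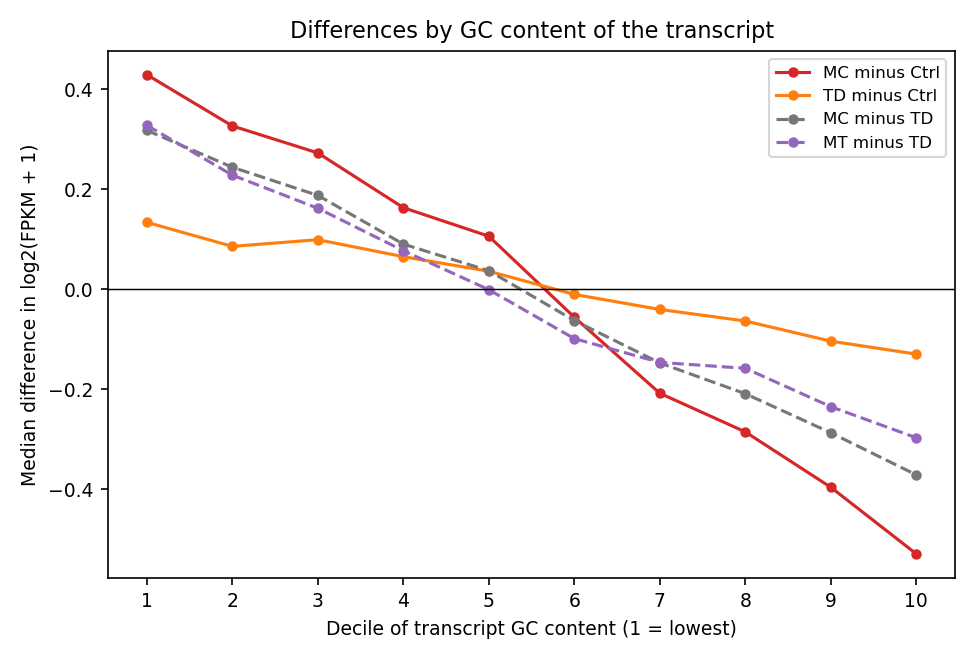
Median log2 fold change on the log2(FPKM + 1) scale in 10 groups of genes with a mean over 5 FPKM ordered by transcript GC content, for MC against Ctrl, TD against Ctrl, MC against TD and MT against TD. The MC line falls from 0.43 to -0.53 and the TD line from 0.13 to -0.13.

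The same change of culture in medium with T3/Dex, MT against TD, uses none of the 6 libraries above, and the label of MT-2 names T4. It called 345 genes higher (2.99%) and 823 lower (7.14%), 10.1% of those tested in all. With limma array weights, 1 per library, it called only 6 higher and 14 lower, and with 1 weight per condition 6 and 6. The typical SD between libraries was 0.632 in MT and 0.369 in TD. Relative depth was 0.753 and 0.499 in MT, where 2335 and 2854 genes were listed at 0, against 595 to 833 in TD. The counts and p-values below are those of the unweighted fit. Of the 744 MC calls, 86 were called in the same direction in MT against TD, 13 of them among the 287 shared with TD and 73 among the 457 others, and 42 were called in the opposite direction, 33 and 9. TNNT2 had 24.5 and 36.5 FPKM in MT, 4.30 above TD (adjusted p = 6.81e-06), and MYL2 73.4 and 205, 4.22 above TD (adjusted p = 0.000258). All 13 mitochondrially encoded genes and 9 of 27 sarcomere genes were higher in MT than in TD, and none was lower. IL11, at 68.3 and 64.1 FPKM in MT, was 2.53 above TD (adjusted p = 0.000462) where MC lay below Ctrl, and SERPINE2 was 1.10 above (adjusted p = 0.00371). FMO1, at 84.2 and 70.3 FPKM, had -0.57 (adjusted p = 0.179). SH3BP1 had 2.09 and 3.49 FPKM in MT, with -1.36 against TD (adjusted p = 0.00322).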

How the data were processed

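RNAseq was done on 14 libraries of pig heart slices. Per the labels and the study's methods, messenger RNA was captured on poly-T beads, libraries were made with a NEBNext kit and sequenced on a NovaSeq, base calls were made with CASAVA, and reads were mapped to Sscrofa11.1 with HISAT2. For the counter and its gene annotation, the release is not given in the sources used here. 1 table was deposited by the authors, which holds FPKM per gene and library, with no read counts, so depth in reads is unknown, intervals for counting error are not given, and the DESeq2 test of the study was not run here. Gene symbols came from the table for 11135 entries and from RefSeq for 594, and 1915 had none.

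Genes that reached 1 FPKM in 2 or more libraries were tested on log2(FPKM + 1) with limma 3.58.1 in R 4.3.3, with 1 mean per condition over all 14 libraries, an empirical Bayes trend and Benjamini-Hochberg adjustment over all 11527 genes, at a threshold of 0.05. On this scale the change of a low gene is understated. MC minus TD was the test of the difference between MC and TD, and intervals cover 95%. Genes were named by a rule: the 15 largest rises and falls with non-overlapping values, up to 3 per direction and list, the 8 largest shared and the 8 largest that also differed from TD in each direction, and genes that the study names. Members and lists were chosen with earlier results of these data known. TSC22D3, MYOZ2, IL1RL1, CD14, PECAM1, VWF, CLDN5 and ESAM, and other called list members outside the rule, were named after their values were seen. On simulated data with 200 of 11527 genes changed between MC and Ctrl, 158 were called, 6 of them falsely, and 56% of changes of 1 and 96% of changes of 2 on the log2 scale were recovered. The noise was normal, independent between genes and libraries, and of equal spread in all conditions. With the spread set by condition, 164 were called, 5 falsely, and 63% and 96% were recovered. Neither setting held a trend shared across genes, so these counts give no error rate for the 744 calls. Alternatives covered the pseudocount, filter, scaling, weights, libraries used, replicate block and, added after the data were seen, base composition. Python 3.11.15, pandas 2.3.3 and matplotlib 3.10.9 served for summaries and plots.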

Additional observations from a re-analysis of the deposited data

Results flagged for a closer look

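Among 130 groups of 4 libraries of the named genes, 7 had 1 Ctrl library far from the other 3, and chance gives about 1 in 20. Ctrl-1 stood apart for ALOX5AP at 10.8 FPKM, MARCO at 6.35 and SNORD33 at 14.9. Ctrl-2 stood apart for RPL22L1 at 57.8 FPKM, DLGAP5 at 3.51, TES at 21.1 and BNC1 at 1.79.

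The effect of the CTCM with T3/Dex (MT minus TD) differed from that without (MC minus Ctrl) by limma's test of the difference for 59 of 123 named genes and 538 of all 11527 genes tested. Of the named genes, 114 were called in MC against Ctrl, and most were chosen for that change, which is subtracted here. Their high share and signs opposite to the MC change are thus partly built in. The test pools the spread over conditions, and the typical SD was 0.632 in MT. The values given are MT minus TD, less MC minus Ctrl, in log2. The difference was negative for FMO1 (-5.28), DIO3 (-5.15), IL1R2 (-4.34), CIDEC (-4.12), PTX3 (-3.75), AGT (-3.07), GPX3 (-3.05), TRIM63 (-2.93), FST (-2.74) and CD163 (-2.59). Smaller negative differences were those of TCN1 (-2.36), MARCO (-2.30), ALOX5AP (-2.13), UBE2C (-2.12), FKBP5 (-2.07), OMD (-2.01), SELENOP (-1.86), KRT7 (-1.82), MRC1 (-1.62) and LPL (-1.52). Smaller negative differences were those of CXCL10 (-1.48), CAT (-1.39), GADD45A (-1.28), MFAP4 (-1.27), TSACC (-1.20), TES (-1.15) and BUB1B (-0.99).

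It was positive for IL11 (5.32), TNFRSF18 (4.51), SFRP1 (3.71), IL6 (3.51), SERPINE2 (3.30), TNNT2 (2.94), DLL4 (2.91), IGFBP4 (2.90), IGFBP2 (2.74) and IGFBP5 (2.74). Smaller positive differences were those of KDR (2.56), COL8A1 (2.42), INHBA (2.38), MYL2 (2.37), ALPK3 (2.32), TGFB3 (2.26), MFAP2 (2.12), TGM2 (2.09), AREG (2.05) and SFRP2 (2.01). Smaller positive differences were those of ACTA1 (1.93), HES4 (1.89), SOX18 (1.89), NR4A2 (1.76), TRPC6 (1.62), MMP9 (1.54), BNC1 (1.53), GPNMB (1.39), GJA1 (1.24) and BHLHE41 (1.18). Smaller positive differences were those of PKDCC (1.17) and NT5E (1.08).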

How the results depend on the processing

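The counts of calls moved with the settings. Genes called in MC against Ctrl, 744 as reported, were 87 with replicates 1 and 2 of Ctrl and TD only, 70 with replicates 3 and 4 only, 455 after the GC and length correction, 2053 with MC and Ctrl alone, 1579 with limma array weights, 1774 without MT and 353 with at least 1 on the log2 scale, and 132 (without MC-2) to 681 (without Ctrl-2) with 1 MC or Ctrl library left out. The ranges below also leave out MC or Ctrl libraries only, never a TD library. Shared calls, 287 as reported, were 39, 29, 522 (array weights), 483 (without MT) and 151 (at least 1), and 100 to 245 with 1 library left out. TD against Ctrl, 401 as reported, had 47, 42, 1080 (array weights) and 634 (without MT), and 243 to 405 with 1 library left out. MC against TD, 5 as reported, had 2 with replicates 1 and 2 only, 9 at a pseudocount of 0.1, 2 at a pseudocount of 5, 9 without MT, 1 with no filter and 0 to 4 with 1 library left out. By limma it had 0 with replicates 3 and 4 only (660 at an unadjusted p under 0.05), the GC and length correction (361), a filter of 5 FPKM (603), array weights (2225), matched transcripts without correction (753), 1 weight per condition (563) and without mitochondrially encoded and ribosomal protein genes (736), and without Ctrl-3 (737) or Ctrl-4 (761). The cause of these moves was not tested, except that settings with fewer libraries have fewer samples.

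MC and Ctrl share only replicate numbers 1 and 2, which no label ties to a pig or day, so the correlation of same-numbered deviations is 1 value, 0.44, and -0.44 crossed. Between Ctrl and TD it was -0.32, -0.50, 0.41 and -0.016 for numbers 1 to 4, so the numbers were not taken as pairs. With the replicate block 278 genes were called in MC against Ctrl, 181 were shared with TD and 1 differed between MC and TD. By limma it called 0 of 27 sarcomere genes, with MYL2 at an adjusted p of 0.111 and TNNT2 at 0.0551, and 4 of 13 mitochondrially encoded genes.

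Of 3060 values of the 123 named genes under alternatives, 2371 kept direction and side of the threshold, 673 lost the call, 9 gained it and 7 changed sign, none of a called gene. The sign changed for ACTA2 (-0.52 to 0.12 with 1 library left out), NPPB (0.027 with quantile normalization, -0.48 to 0.12), RGL1 (0.087 with the GC and length correction, -0.30 to 0.078) and GAPDH (-0.11 in TPM, -0.54 to 0.89). Of 114 called named genes 19 were called under every alternative and 31 without each MC and Ctrl library in turn. MC had 2 libraries of low depth, which limits low genes most.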

Other observations

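Of 30 heat shock genes and chaperonins HSPD1 and HSPA4 rose in MC and the small heat shock protein HSPB6 fell, 10% against 6.45% of all genes. HSPB6 had 57.9 to 67.2 FPKM in Ctrl, 20.4 and 26.7 in MC and 32.8 to 44.9 in TD, a fall of -1.37 (adjusted p = 0.00164) against -0.66. Both MC libraries lay below every Ctrl and TD library. Of 43 lysosomal genes CTSC rose and CTSD, GPNMB, IDUA and MCOLN1 fell, 11.6% of the list against 6.45% of all genes. Leaving out any 1 Ctrl library left 2 falls and no rise in this list. Cytosolic ribosomal protein genes had a median of 0.80 with 0 of 52 called by limma.

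DIO3 had 4.65 and 2.55 FPKM in MT, with -2.54 against TD (adjusted p = 0.00124), where MC lay above Ctrl.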
